A study of Homo sapiens with 9 samples.

Results

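The BCL2 family genes described here are 10 of the 58920 genes listed in the count tables of 9 RNA-sequencing libraries. They were chosen by symbol: the anti-apoptotic BCL2, BCL2L1 (BCL-xL) and MCL1, the effectors BAX and BAK1, and the BH3-only genes BID, BAD, BBC3 (PUMA), BCL2L11 (BIM) and PMAIP1 (NOXA). All 10 were listed in every table and all passed the filter of at least 10 counts over the 9 libraries. The libraries came from LIM1215, a human colorectal cancer line that responds to cetuximab, an antibody against the EGF receptor. LIM1215-R1 and LIM1215-R2 cells (R1 and R2 in short, labelled Resistant_1 and Resistant_2) were selected side by side from LIM1215-parental cells over months of rising cetuximab, while the parental line was kept without the antibody. Both resistant lines are mixed populations and not clones, and per the study a subpopulation of each carries an activating HRAS mutation. RNA was taken from untreated cultures, in 3 libraries per line. The study describes these as technical replicates. Hence p-values measure the spread between these libraries, and a difference of culture or harvest and a difference between the lines cannot be told apart.

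BCL2 family proteins decide whether the outer mitochondrial membrane stays closed or is opened to release cytochrome c. BAX and BAK form the pores, anti-apoptotic members hold these effectors and the BH3-only proteins in check, and BH3-only proteins sense stress and occupy the groove of the anti-apoptotic members or engage the effectors. Drugs called BH3 mimetics fill the same groove, and colorectal cancer cells are known to rely often on BCL-xL and MCL-1 rather than on BCL-2. Messenger RNA is only one layer of this control, since MCL-1 and NOXA are short-lived proteins and BAD and BIM are regulated by phosphorylation. By immunoblot of untreated cells the study reports equal MCL-1 protein in all lines and no detectable BCL-2. It describes BCL-xL protein as significantly raised in R2 and modestly in R1, BAK as slightly lower in both and BID as modestly higher in R2. NOXA, PUMA and BAX proteins were not reliably detected there.

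Total counts lay between 13737416 and 18725014 per library, and a gene with 0 counts in a library could have had up to 0.158 to 0.217 CPM (a count scaled to the size of its library, with edgeR's TMM factors), the level of 3 counts. Of 9 markers of colorectal epithelium 8 were above that floor and KRT20 was at 0 in all 9 libraries. The summed level of the 9 markers was 12550 to 12940 CPM in parental, 15800 to 16060 in R1 and 14310 to 14720 in R2 libraries, and its part in the results below was not tested. KRT8 and KRT18, keratins of simple epithelium, made up most of this sum. In both resistant lines KRT8, KRT18 and the microvillus gene VIL1 were higher at an adjusted p of at most 0.01 (edgeR's quasi-likelihood test) and 4 markers lower, namely CDH17 (-0.53 in R1 and -0.58 in R2), CDX2 (-0.44 and -0.55), EPCAM (-0.26 and -0.32) and LGALS4 (-0.23 and -0.37 on the log2 scale), while CDH1 did not pass. The 6 markers of blood, endothelial and stromal cells summed to between 1.44 and 3.68 CPM, with PTPRC, CD3E and COL1A2 at 0 in every library. PECAM1 had 15 counts in the parental libraries together, 10 of them in 1 library, and 0 in R1 and R2. It was called lower in R1 (adjusted p = 0.00795) and R2 (adjusted p = 0.00888), calls that rest on these few counts. COL1A1 and ACTA2 did not pass against parental cells. In RNA from a whole culture, fewer cells of a type and less RNA per cell cannot be told apart.

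RefSeq promoter windows on GRCh38.p14 were found for 9 of the 10 members, not for MCL1. The 250 bases before each start were searched on both strands for GGGCGG (Sp1), TGANTCA (AP-1), CCGGAA (ETS), TGACGTCA (cAMP response element) and CACGTG (E-box), letters held by 42.64%, 6.57%, 14.53%, 1.65% and 6.34% of all 35116 windows. The stretches given are those of BCL2L1, the most abundant member, BAX, which differed between the resistant lines, and PMAIP1, a BH3-only gene known to be induced under cell stress, a choice made with their values known. Bases within annotated exons of the same gene were left out, motif letters are in capitals, and each sequence runs 5′ to 3′ along its gene.
BCL2L1 (chr20:31723990-31724213, minus strand): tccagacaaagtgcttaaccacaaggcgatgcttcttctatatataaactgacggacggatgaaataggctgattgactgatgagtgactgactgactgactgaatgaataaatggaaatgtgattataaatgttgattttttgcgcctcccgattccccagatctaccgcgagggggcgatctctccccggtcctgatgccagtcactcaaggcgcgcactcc
BAX (chr19:48954625-48954814, plus strand): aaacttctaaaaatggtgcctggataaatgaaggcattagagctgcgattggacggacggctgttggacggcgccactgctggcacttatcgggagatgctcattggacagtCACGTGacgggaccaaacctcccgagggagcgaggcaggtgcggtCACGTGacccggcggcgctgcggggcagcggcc
PMAIP1 (chr18:59899746-59899995, plus strand): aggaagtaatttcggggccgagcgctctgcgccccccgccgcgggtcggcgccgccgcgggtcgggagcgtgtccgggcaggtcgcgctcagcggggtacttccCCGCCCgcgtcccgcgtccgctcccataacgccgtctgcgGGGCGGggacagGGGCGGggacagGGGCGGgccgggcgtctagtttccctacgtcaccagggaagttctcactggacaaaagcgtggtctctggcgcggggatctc
The BCL2L1 stretch held none of the 5 motifs. The BAX stretch held 2 CACGTG, and its full window of 250 bases held 4 together with 1 GGGCGG. PMAIP1 held 4 GGGCGG, of which 1 lay on the opposite strand and reads CCGCCC. These matches describe letters and not binding.

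In R1 against parental cells 5 of the 10 members were higher at an adjusted p of at most 0.01, where 14% of the 19102 genes tested were higher. None was lower, where 13.4% of genes were, and 6 members had an unadjusted p under 0.05, in either direction, in edgeR's quasi-likelihood test, as had 43.1% of genes. In R2 against parental cells 4 members were higher, against 12.3% of genes, and 1 was lower, against 11.6%, with 7 members at an unadjusted p under 0.05, against 39.8%. Between the resistant lines no member was higher in R2, against 3.39% of genes, and 2 were lower, against 3.77%, with 4 members at an unadjusted p under 0.05, against 24.6%. All 3 anti-apoptotic members were higher in both resistant lines. Of the 7 pro-apoptotic members, 2 were higher in R1, while 1 was higher and 1 lower in R2. The changes were small. With a further threshold of a log2 fold change of 1.5 in either direction, 0 of 10 members passed in any comparison, where 5.14% of genes passed for R1, 4.82% for R2 and 0.764% between the resistant lines. The member with the largest change, BCL2, reached 1.41 at most under the 19 alternatives tried. The median log2 fold change of the 10 members was 0.29 in R1, 0.12 in R2 and -0.070 between the resistant lines, beside -0.011, -0.0040 and -0.0010 over all genes tested. Both comparisons with parental cells share the parental libraries.

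**Figure D1:**
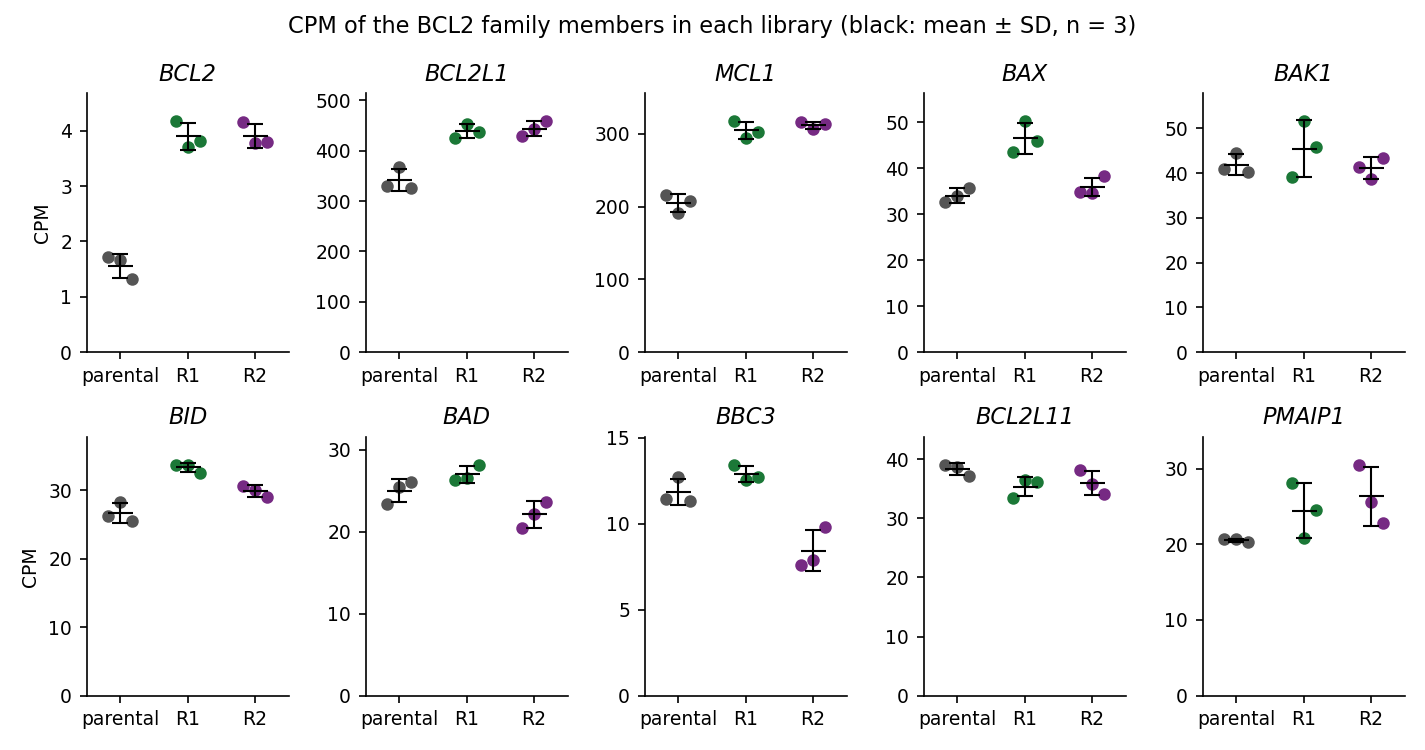
CPM (linear axis from 0) of the 10 members in the 3 libraries of LIM1215-parental (grey), R1 (green) and R2 (purple) cells, with the mean and SD in black. BCL2, BCL2L1, MCL1, BID and PMAIP1 were higher in all 6 resistant libraries than in any parental library, PMAIP1 barely so in R1. BAX was high in R1 and BBC3 low in R2. How many of all genes lack overlap was not counted.

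Among the anti-apoptotic members, BCL2L1 (gene ID 598, chromosome 20, 31664452 to 31723963) encodes BCL-xL, which blocks BAX and BAK and, like MCL-1, is targeted by a BH3 mimetic in the study. It was at 331, 368 and 327 CPM in the parental libraries, at 426, 454 and 438 in R1 and at 429, 444 and 459 in R2. Every resistant library was above every parental one, and the resistant lines overlapped. The log2 fold change was 0.36 ± 0.046 (SE) in R1 (adjusted p = 3.6e-07) and 0.38 ± 0.046 in R2 (adjusted p = 1.77e-07). Between R2 and R1 it was 0.015, with a 95% interval from -0.079 to 0.11. When the trends of each library on GC content and transcript length were removed, the change in R1 was 0.21 (adjusted p = 1.6e-06). In R2 it was then 0.29 (adjusted p = 7.43e-10), and between R2 and R1 0.085 (adjusted p = 0.0769). The counts do not separate BCL-xL from the short, pro-apoptotic splice form BCL-xS of this gene.

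MCL1 (gene ID 4170, chromosome 1, 150574558 to 150579610) encodes a short-lived guardian that NOXA binds and marks for turnover. It was at 215, 191 and 208 CPM in parental, 317, 293 and 303 in R1 and 316, 307 and 313 in R2 libraries, so that again no resistant library reached down to the parental range. Its log2 fold change was 0.57 ± 0.047 in R1 (adjusted p = 1.33e-10) and 0.61 ± 0.047 in R2 (adjusted p = 4.1e-11), a 1.49-fold and a 1.52-fold level. The resistant lines differed by 0.034, with an interval from -0.062 to 0.13. In GENCODE 44, 328 bases of its exons are shared on the same strand with ADAMTSL4-AS1, and the splice forms of MCL1 were not separated.

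BCL2 (gene ID 596, chromosome 18, 63123346 to 63320090), the founding member, had the largest change and the lowest level. Only 29, 23 and 25 counts fell on it in the parental libraries, 68, 59 and 61 in R1 and 70, 61 and 58 in R2. That is 1.56 ± 0.217 CPM (SD, n = 3) in parental, 3.90 ± 0.244 in R1 and 3.91 ± 0.219 in R2 cells. Every resistant library held at least 58 counts and no parental one over 29. The log2 fold change was 1.33 ± 0.20 in R1 (adjusted p = 4.99e-06) and 1.33 ± 0.20 in R2 (adjusted p = 4.81e-06), a 2.51-fold and a 2.52-fold level. Between the resistant lines it was 0.0054, with an interval from -0.35 to 0.36.

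Of the effectors, BAX (gene ID 581, chromosome 19, 48954875 to 48961798), which moves from the cytosol to mitochondria to form pores, was at 32.6, 33.9 and 35.7 CPM in parental libraries. It was at 43.5, 50.2 and 45.9 CPM in R1 and at 34.8, 34.7 and 38.3 in R2. R1 stood above both other lines, which overlapped. BAX rose by a log2 fold change of 0.45 ± 0.072 in R1 (adjusted p = 1.28e-05), whereas in R2 the value was 0.075 ± 0.074 (adjusted p = 0.495). The resistant lines differed from each other, with R2 at -0.37 ± 0.072 against R1 (adjusted p = 0.000603). With GC and length trends removed the change in R1 was 0.29 (adjusted p = 9.67e-05).

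BAK1 (gene ID 578, chromosome 6, 33572552 to 33580276), the effector that resides in the outer membrane, was at 40.8, 44.6 and 40.3 CPM in parental, 39.1, 51.6 and 45.8 in R1 and 41.3, 38.7 and 43.4 in R2 libraries. The 3 groups overlapped, and R1 spread most, with an SD of 6.26 CPM. Its log2 fold change was 0.12 in R1 (interval -0.045 to 0.29) and -0.025 in R2 (interval -0.19 to 0.14). No comparison passed the test. The value in R1 turned to -0.049 with GC and length trends removed. BAK1 is uncertain to an extent that was not measured, since its transcript matches the pseudogene BAK1P1 on chromosome 20 at 97.81% identity. BAK1P1 was listed with 2 to 5 counts per library, but reads that fit both places were not examined.

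**Figure D2:**
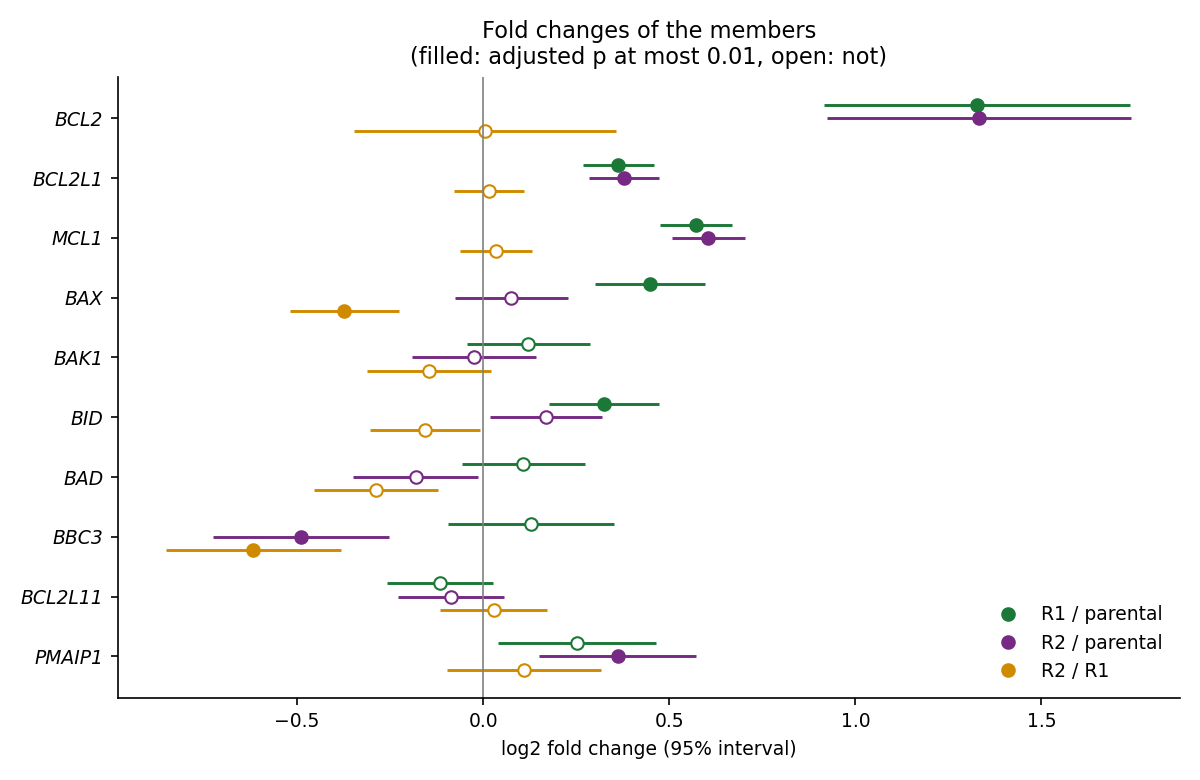
Log2 fold changes of the members (x axis) with 95% intervals in R1 against parental (green), R2 against parental (purple) and R2 against R1 cells (orange), filled where the adjusted p was at most 0.01. The 3 anti-apoptotic genes lie to the right of 0 with filled points in both resistant lines. BAX, BID and PMAIP1 also lie to the right of 0 in both, but are not filled in both. BAX and BBC3 are the members with a filled point between the resistant lines.

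BBC3 (gene ID 27113, chromosome 19, 47220824 to 47232860) encodes PUMA, a BH3-only protein that binds all anti-apoptotic members. It was at 11.4, 12.7 and 11.3 CPM in parental, 13.4, 12.6 and 12.7 in R1 and 7.61, 7.87 and 9.80 in R2 libraries. All 3 R2 libraries lay below the other 6, and R1 and parental libraries overlapped. BBC3 fell by 0.49 ± 0.12 on the log2 scale in R2 against parental cells (adjusted p = 0.00138). R2 was also below R1, at -0.62 ± 0.11 (adjusted p = 0.00039). The call against parental cells was lost without R2 replicate 1 (-0.42, adjusted p = 0.0162) or replicate 2 (-0.44, adjusted p = 0.0129). In R1 the value was 0.13 (interval -0.094 to 0.35), and it turned to -0.19 (adjusted p = 0.146) with GC and length trends removed. At 69.66% BBC3 has the highest GC content of the 10 members. In GENCODE 44 it shares 76 bases of exon on the same strand with MIR3191.

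PMAIP1 (gene ID 5366, chromosome 18, 59899996 to 59904305) encodes NOXA, which binds MCL-1. The parental libraries were nearly level at 20.7, 20.7 and 20.3 CPM, while R1 held 28.0, 20.8 and 24.5 and R2 30.5, 25.6 and 22.9 CPM. No resistant library was below the parental ones, but the lowest R1 library was barely above them. PMAIP1 was higher in R2 by a log2 fold change of 0.36 ± 0.10 (adjusted p = 0.00695). This adjusted p was the highest among the members called against parental cells, and the call was lost in 7 alternatives besides the size threshold, among them total counts in place of TMM factors (0.0101) and a filter of 10 counts in every library (0.0109). Without R2 replicate 1 the value was 0.24 (adjusted p = 0.104), without R2 replicate 2 the adjusted p was 0.019, without parental replicate 1 it was 0.0193, without parental replicate 3 it was 0.0274 and without R1 replicate 3 it was 0.0117. In R1 the value was 0.25 ± 0.10 (adjusted p = 0.0582), and it passed without R1 replicate 2 (0.35, adjusted p = 0.00654) or with GC and length trends removed (0.34, adjusted p = 0.000971). The resistant lines differed by 0.11, with an interval from -0.097 to 0.32.

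BID (gene ID 637, chromosome 22, 17734138 to 17774665), which caspase-8 cleaves to link death receptors to mitochondria, was at 26.2, 28.3 and 25.5 CPM in parental, 33.7, 33.7 and 32.5 in R1 and 30.6, 30.0 and 28.9 in R2 libraries. The groups did not overlap, with R2 between the others. BID rose by 0.32 ± 0.072 in R1 (adjusted p = 0.000726). The values of 0.17 ± 0.073 in R2 (adjusted p = 0.0837) and -0.16 between the resistant lines (adjusted p = 0.171) did not pass.

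BAD (gene ID 572, chromosome 11, 64269828 to 64284704) encodes a protein that growth factor signalling holds inactive through phosphorylation. It was at 23.4, 25.5 and 26.1 CPM in parental, 26.3, 26.5 and 28.2 in R1 and 20.5, 22.2 and 23.6 in R2 libraries. R2 lay below R1 in every library. That difference, -0.29 ± 0.081, had an adjusted p of 0.0169 and missed the threshold of 0.01. Against parental cells the log2 fold change was 0.11 ± 0.080 in R1 (adjusted p = 0.327) and -0.18 ± 0.082 in R2 (adjusted p = 0.096). With GC and length trends removed these became -0.15 (adjusted p = 0.104) and -0.33 (adjusted p = 0.00046), so that the direction in R1 and the call in R2 depended on that correction.

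BCL2L11 (gene ID 10018, chromosome 2, 111120914 to 111168445) encodes BIM, which ERK signalling is known to keep low. It was at 39.1, 38.7 and 37.2 CPM in parental, 33.5, 36.5 and 36.1 in R1 and 38.2, 35.8 and 34.1 in R2 libraries. R1 lay below all parental libraries and R2 overlapped with both other lines. Its log2 fold change was -0.12 in R1 (interval -0.26 to 0.028, adjusted p = 0.217) and -0.087 in R2 (interval -0.23 to 0.056, adjusted p = 0.385). A fall of over 0.26 on the log2 scale lies outside both intervals. The splice forms of BIM were not separated.

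**Figure D3:**
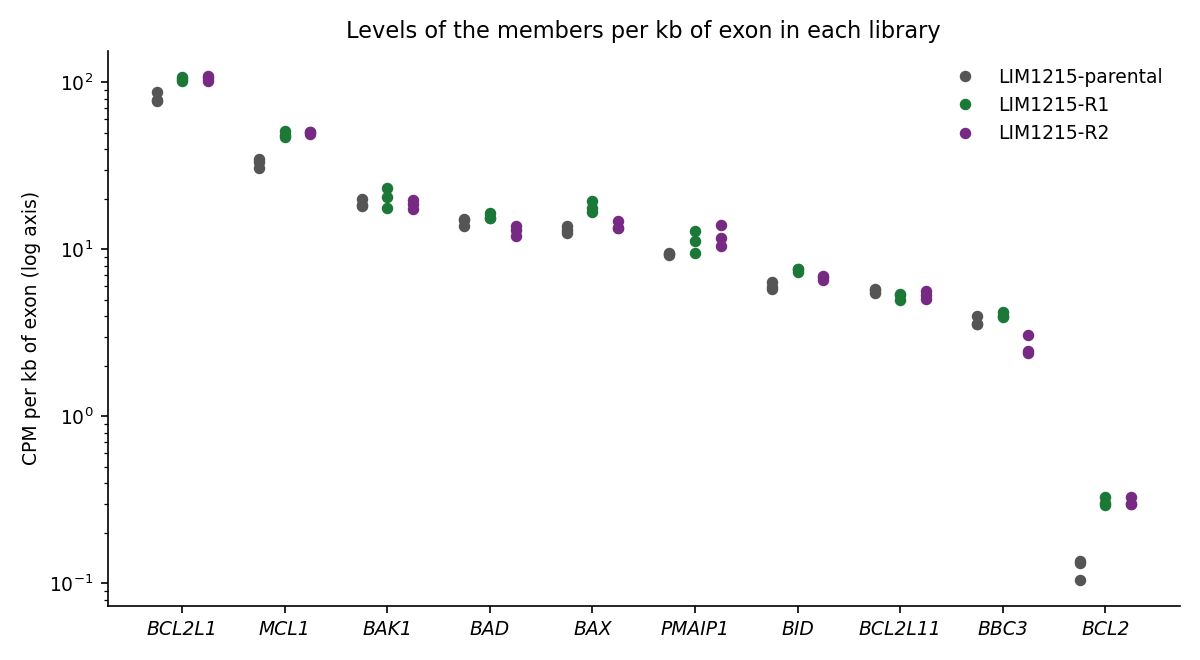
CPM per kb of exon (log axis) of the members in each library, in the order of the parental means. BCL2L1 and MCL1 led in all 3 lines, and BCL2 lay far below the other 9 members.

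Levels of different genes were compared per kb of exon, from the union of the exons of each gene in GENCODE 44. In parental cells BCL2L1 led with 81.4 ± 5.39 CPM per kb (SD, n = 3), followed by MCL1 with 32.9 ± 1.99 and BAK1 with 18.9 ± 1.05. BAD with 14.6 and BAX with 13.2 CPM per kb had overlapping libraries. PMAIP1 with 9.40 CPM per kb came next, then BID with 6.03 and BCL2L11 with 5.68, which overlapped, then BBC3 with 3.72. BCL2 was last with 0.124 ± 0.0172 CPM per kb. BCL2L1 and MCL1 were first and second and BBC3 and BCL2 last in R1 and R2 too. Between them the order shifted: the mean of BAX passed that of BAD in both resistant lines, BAX and BAK1 overlapped in R1, and in R2 the libraries of BAX and BAD and of BAD and PMAIP1 overlapped. With the longest transcript as length, BAX moved to the third and BAK1 to the fifth place in all 3 lines. In R1 BBC3 then also came before BCL2L11, which was next to last, and BID before PMAIP1.

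Summed per kb, the 3 anti-apoptotic members rose from 114 ± 3.64 CPM per kb in parental to 154 ± 1.41 in R1 and 156 ± 3.31 in R2 libraries. The 7 pro-apoptotic members summed to 71.6 ± 2.12, 82.4 ± 2.67 and 72.2 ± 1.78 CPM per kb. Per 100 of the anti-apoptotic sum, the pro-apoptotic sum was thus 62.5 ± 1.47 in parental, 53.5 ± 1.33 in R1 and 46.2 ± 1.26 in R2 cells. These sums leave out the 13 further family genes described below. Of these, the BH3-only BIK was at 66.2, 55 and 45.4 CPM per kb in parental, R1 and R2 cells. The effector-like BOK was at 11.2, 13.9 and 14.3, and the anti-apoptotic BCL2L2 at 7.0, 8.5 and 7.8. BCL2L1 made up 43.7%, 44.3% and 46.3% of the sum over all 10 members and MCL1 17.7%, 20.7% and 21.9%, whereas BCL2 made up 0.067%, 0.131% and 0.136%.

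Ratios of the counts of a pair of members within a library do not depend on how libraries are scaled. Each of 14 pro- to anti-apoptotic ratios was compared between groups of 3 libraries, where the exact two-sided permutation test cannot go below p = 0.1. The ratios share denominators and are not independent of each other or of the values above. In R1 against parental cells the libraries did not overlap in 11 ratios, all lower, and overlapped in 3. In R2 against parental cells 13 were lower and 1 overlapped. In R2 against R1, 9 were lower and 5 overlapped. Each ratio without overlap had that smallest exact p. The denominators BCL2, BCL2L1 and MCL1 were themselves higher in both resistant lines. How often other pairs of genes lack overlap was not counted, so these counts have no background beside them.

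BAX to BCL2L1 is the ratio of an effector to the most abundant guardian. In parental libraries 9.85, 9.21 and 10.9 BAX counts fell on 100 BCL2L1 counts, in R1 10.2, 11.1 and 10.5, and in R2 8.12, 7.81 and 8.34. R1 overlapped with parental cells (log2 difference 0.085, exact permutation p = 0.4). R2 lay below both, at -0.30 against parental and -0.39 against R1 cells.

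In R2, BBC3 showed the widest differences relative to BCL2L1 and MCL1. On 100 BCL2L1 counts there were 3.46, 3.46 and 3.47 BBC3 counts in parental, 3.15, 2.77 and 2.90 in R1 and 1.77, 1.77 and 2.14 in R2 libraries. The 3 groups were separate, at log2 differences of -0.24 in R1 and -0.88 in R2 against parental cells. On 100 MCL1 counts BBC3 went from 5.31, 6.65 and 5.46 in parental to 4.24, 4.28 and 4.19 in R1 and 2.41, 2.57 and 3.13 in R2, which is -0.45 and -1.11 on the log2 scale. With GC and length trends removed the R1 differences were -0.40 to BCL2L1 and -0.77 to MCL1.

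BCL2L11, whose own change did not pass the test, was lower relative to both guardians in each resistant line. On 100 MCL1 counts there were 18.1, 20.3 and 17.9 BCL2L11 counts in parental, 10.6, 12.4 and 11.9 in R1 and 12.1, 11.7 and 10.9 in R2 libraries. The log2 difference was -0.69 in R1 and -0.70 in R2, and the resistant lines overlapped. Relative to BCL2L1 the difference was -0.48 in R1 and -0.47 in R2, and the former was -0.32 with GC and length trends removed.

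PMAIP1 to MCL1, a pair known to bind, was 9.59, 10.8 and 9.79 per 100 in parental, 8.84, 7.10 and 8.08 in R1 and 9.66, 8.36 and 7.31 in R2 libraries. R1 lay below parental cells (-0.33), and R2 overlapped with them (-0.26). Between the guardians, MCL1 per 100 BCL2L1 counts was 65.2, 52.0 and 63.5 in parental, 74.4, 64.7 and 69.1 in R1 and 73.6, 69.0 and 68.2 in R2. It was higher in all R2 libraries (0.23) and overlapped with parental cells in R1 (0.21, or 0.38 with GC and length trends removed).

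**Figure D4:**
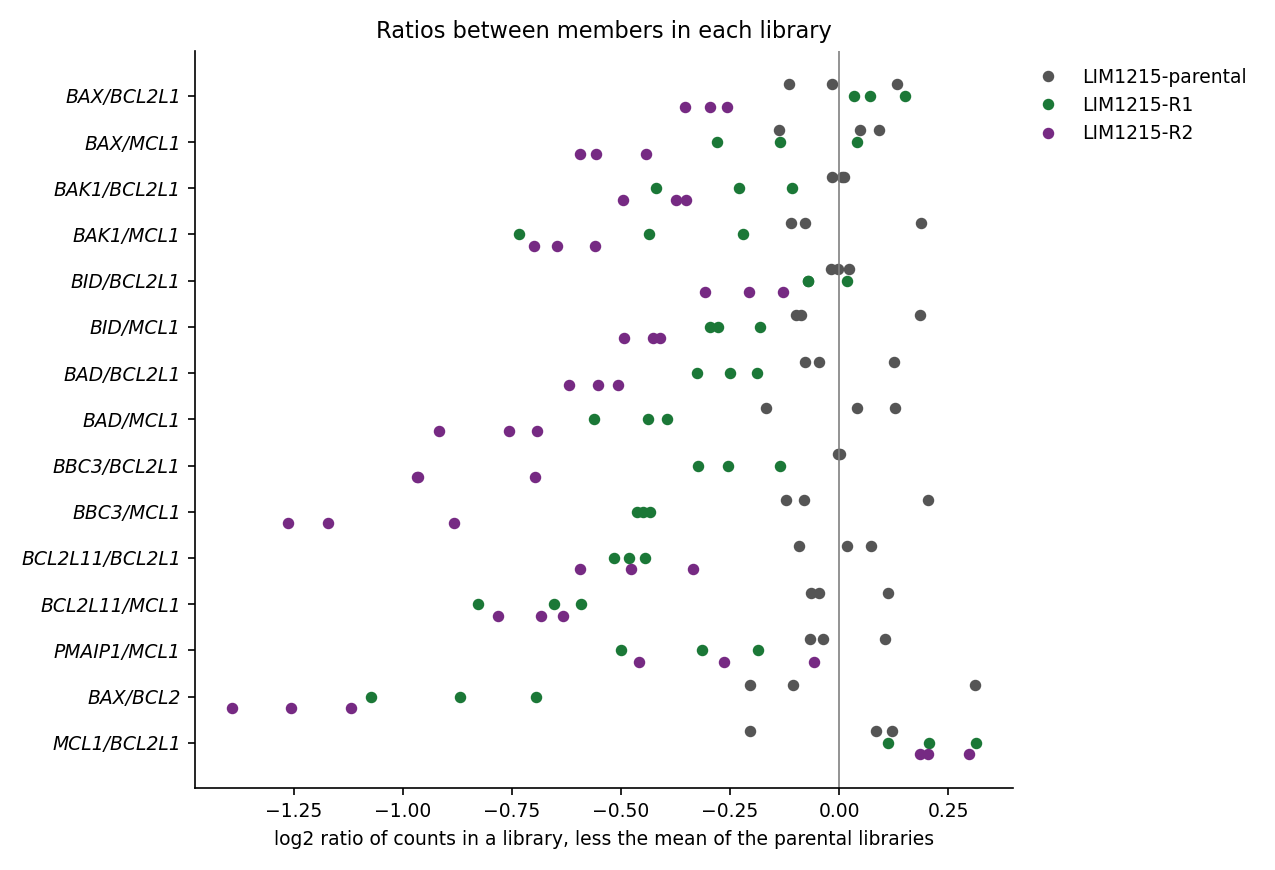
Log2 ratio of the counts of the member pairs named at the left in each library, less the mean of the 3 parental libraries (x axis), for LIM1215-parental (grey), R1 (green) and R2 cells (purple). Of the 14 pro- to anti-apoptotic ratios 13 lie below all parental libraries in R2, a count not set against other gene pairs. The widest shift is that of BAX to BCL2 in R2, at -1.26, where BCL2 had only 23 to 29 counts per parental library.

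As a single value without a test, the mean log2 CPM of the 7 pro-apoptotic members less that of the 3 anti-apoptotic ones was -0.94, -0.84 and -0.78 in parental, -1.49, -1.40 and -1.41 in R1 and -1.67, -1.67 and -1.63 in R2 libraries. The groups did not overlap. The difference to parental cells was -0.58 in R1 and -0.80 in R2. It leaned on the rarely counted BCL2, without which it was -0.29 and -0.52.

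**Figure D5:**
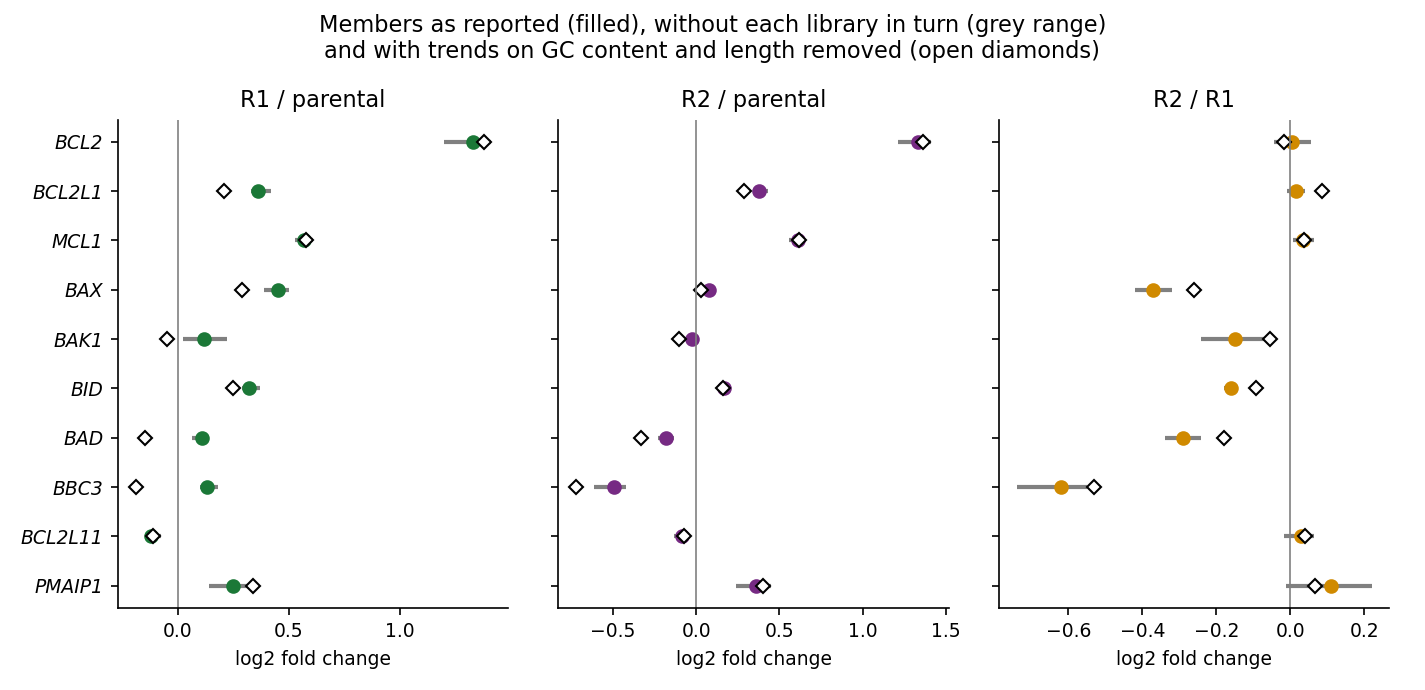
Log2 fold change of each member (x axis) as reported (filled), its range when each library was left out in turn (grey line) and its value with GC and length trends removed (open diamonds), for the 3 comparisons. BAK1, BAD and BBC3 cross 0 in R1 under the GC and length correction. The anti-apoptotic members stay to the right of 0 in both comparisons with parental cells, as do BAX, BID and PMAIP1.

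Of 13 further genes of the family, 11 were counted often enough to be tested, with 3 higher and 2 lower in R1, 2 higher and 4 lower in R2 and 0 higher and 2 lower between the resistant lines. Over all genes tested, 14% were higher and 13.4% lower in R1, 12.3% and 11.6% in R2, and 3.39% and 3.77% between the resistant lines. The anti-apoptotic BCL2L2 (BCL-w) was higher in R1 (0.27, adjusted p = 0.00268), with a value of 0.16 in R2 (adjusted p = 0.0943). BCL2A1 had 1 count, in R2 replicate 3, and 0 in the other 8 libraries. BCL2L10 had 0 in all 9, which allows up to 0.0602 to 0.0622 CPM in a line, and these limits cover counting error only. BOK, an effector-like member, was higher in R1 (0.32, adjusted p = 0.0034) and R2 (0.36, adjusted p = 0.00129).

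Among the further BH3-only genes, BMF, which is bound to the cytoskeleton in healthy cells, fell most. It had 35, 39 and 51 counts in parental, 9, 19 and 11 in R1 and 9, 8 and 5 in R2 libraries, without overlap to parental cells. Its log2 fold change was -1.63 ± 0.29 in R1 (adjusted p = 6.55e-05) and -2.44 ± 0.33 in R2 (adjusted p = 8.95e-07). BIK, at 58.2, 67.5 and 63.1 CPM in parental, 50.2, 54.3 and 52.4 in R1 and 42.7, 42.9 and 43.9 in R2 libraries, fell by 0.27 (adjusted p = 0.00142) and 0.54 (adjusted p = 1.11e-07). HRK had 1 count in the parental libraries together, 12 in R1 and 21 in R2, of which 14 lay in 1 library. It is nevertheless 1 of the 2 further family genes called higher in R2 (adjusted p = 0.00361), a call that rests on these few counts. The ratio to parental cells was 12.4 (95% counting interval 1.83 to 530) in R1 and 21.7 (3.49 to 896) in R2, an interval chosen after the counts were seen. This interval pools the libraries of a line and leaves out the spread between them. In R1 edgeR's test did not call HRK (adjusted p = 0.0304). Further members included BCL2L15, higher in R1 (0.89, adjusted p = 0.000287), and BNIP3L, a mitophagy receptor, lower in R2 (-0.33, adjusted p = 0.0034). Both had the same direction in the other line without passing, BCL2L15 at 0.53 in R2 (adjusted p = 0.0322) and BNIP3L at -0.25 in R1 (0.0215). Neither passed between the resistant lines (adjusted p = 0.195 and 0.643). BCL2L14, at 8.85, 9.17 and 9.98 CPM in parental libraries and 5.11, 5.02 and 4.96 in R2, was lower there (-0.89, adjusted p = 1.62e-06), with a value of -0.22 in R1 (adjusted p = 0.141).

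Of 17 partners and regulators of the family, 4 were higher and 1 lower in R1, 3 were higher and 1 lower in R2, and 1 was higher in R2 than in R1. These counts stand beside the same shares of all genes, 14% higher and 13.4% lower in R1, 12.3% and 11.6% in R2, and 3.39% higher between the resistant lines. VDAC1, a channel of the outer membrane, was higher in both resistant lines (0.32, adjusted p = 1.72e-06, and 0.27, adjusted p = 2.24e-05). STAT3, a factor known to act on BCL2L1 and MCL1, was higher by 0.41 in R1 (adjusted p = 6.36e-08) and 0.31 in R2 (adjusted p = 4.68e-06). VDAC2, which holds BAK (0.27, adjusted p = 0.000159), and RELA (0.20, adjusted p = 0.0064) were higher in R1, and FOXO3, known to act on BCL2L11 and BBC3, was lower there (-0.27, adjusted p = 0.00363). TP73, known to act on BBC3 and PMAIP1, was higher in R2 (0.33, adjusted p = 0.00429), where ATF4 was lower (-0.24, adjusted p = 5.24e-05). Each had the same direction in the other resistant line without passing. In R2 VDAC2 was at 0.12 (adjusted p = 0.0802), RELA at 0.10 (0.188) and FOXO3 at -0.22 (0.0148). In R1 TP73 was at 0.23 (adjusted p = 0.042) and ATF4 at -0.086 (0.12). Between the resistant lines none of them passed (adjusted p from 0.0154 for ATF4 to 0.786 for FOXO3). HUWE1, a ligase known to tag MCL-1, was higher in R2 than in R1 (0.19, adjusted p = 0.0018). Against parental cells its value was 0.12 in R2 (adjusted p = 0.0217) and -0.068 in R1 (adjusted p = 0.211), and neither passed.

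The 3 genes whose log2 CPM followed that of BCL2L1 most closely over the 9 libraries, of 10084 compared, were TUBA4A (Pearson r 0.9957), MYADM (0.9936) and OAS3 (0.9928). The points share libraries and group differences, and 8.9% of the genes compared had an r above 0.9. TUBA4A went from 126 CPM in parental to 200 in R1 and 199 in R2 cells, MYADM from 98.8 to 185 and 184, and OAS3 from 91.2 to 172 and 180 CPM.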

How the data were processed

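Stranded poly(A) libraries of untreated LIM1215 cells were sequenced paired-end. Per the labels and the methods of the study, STAR served for alignment to hg38 and HTSeq 0.9.1 for counting sense reads per gene. The deposited tables, 1 per library, hold raw counts that the authors did not normalize. The gene annotation is not given in the sources used here.

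Libraries were grouped by the labels into 3 lines of 3. The 19102 genes whose counts over all 9 libraries summed to 10 or more were fitted in 1 quasi-likelihood model (edgeR 4.0.16, limma 3.58.1, R 4.3.3) with TMM factors from 0.984 to 1.02, and p-values were adjusted by Benjamini-Hochberg over all of them. A gene was called at an adjusted p of at most 0.01. The common biological coefficient of variation was 4.92%, and counts of replicates differed by 1.89 to 6.58 times their sampling noise (chi-square per degree of freedom), so none was counted as a repeated library. The fit was tested on simulated data. DESeq2 1.42.0 served as an alternative, beside other scaling, filters, thresholds, 6-library fits, a replicate block, libraries left out, and trends on GC content and length removed (GENCODE 44, available for 85.7% of the genes tested). That correction of the ratios was added after the data were seen.

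Ratios used raw counts of 1 library, with an exact two-sided permutation test. Positions and promoters are from RefSeq (GRCh38.p14). Near copies of member transcripts were sought with minimap2 2.31. The genes named are the 10 members, the lists of 13 family genes, 17 partners and regulators (1 further gene of that list is not reported here) and 15 markers, and the 3 genes most correlated with BCL2L1 among those with a mean of at least 100 counts. The members and lists were chosen with earlier results of these data known.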

Additional observations from a re-analysis of the deposited data

Results flagged for a closer look

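The contrast between the resistant lines in edgeR's quasi-likelihood fit tested directly whether the effect in R2 differed from that in R1. It did for 5 genes among the 10 members, 11 further family genes and 17 partners and regulators tested. Of all genes, 3.39% were higher and 3.77% lower in R2. The markers were not searched for this list, and KRT8 (-0.14, adjusted p = 0.00115) and KRT18 (-0.14, adjusted p = 0.00197) passed the same contrast. BAX, called against parental cells in R1 and not in R2, differed by -0.37 on the log2 scale (adjusted p = 0.000603). BBC3 differed by -0.62 (adjusted p = 0.00039), with all 3 R2 libraries below the other 6. BCL2L14 differed by -0.67 (adjusted p = 0.000574), at 8.28, 7.85 and 7.88 CPM in R1 and 5.11, 5.02 and 4.96 in R2 libraries. BIK, lower than in parental cells in both resistant lines, differed by -0.28 (adjusted p = 0.00449). HUWE1 differed by 0.19 (adjusted p = 0.0018), at 411, 424 and 403 CPM in R1 and 472, 468 and 472 in R2 libraries.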

How the results depend on the processing

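Alternatives were run for the 10 members, not for the other lists. The calls of BCL2, BCL2L1 and MCL1 in both resistant lines, of BAX and BID in R1 and of BAX and BBC3 between the resistant lines passed in all alternatives that kept the rule on size. With a log2 fold change of 1.5 required, 0 members were called in each comparison. Leaving out each library gave 5 to 6 calls in R1, 3 to 5 in R2 and 2 each time between the resistant lines. In R2 3 calls were left without its replicate 1 or 2. With GC and length trends removed 6 members were called in each resistant line and 2 between them, BAD, BAK1 and BBC3 turned in R1 to -0.15, -0.049 and -0.19, and BCL2 turned between the resistant lines to -0.018. Values near 0 changed sign without being called. Between the resistant lines BCL2 took -0.0042 with 10 counts required in every library, -0.0001 in DESeq2, and -0.043 to 0.057 without a library, BCL2L1 took -0.0098 to 0.039, BCL2L11 -0.016 to 0.064 and PMAIP1 -0.011 to 0.22, and BAK1 in R2 -0.067 to 0.02 without a library. The cause of these changes was not tested.

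Same-numbered libraries did not all deviate together (r from -0.106 to 0.274), so numbers were not taken to pair them, and no comparison of 3 pairs had every r over 0.1. With the replicate number as a block, 5, 5 and 3 members were called in R1, R2 and between them, BAD being added between the resistant lines (adjusted p = 0.00635).

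For ratios and levels, a shift was read against 1 SD pooled over the libraries compared, and leaving out 1 of 3 libraries cannot move a mean by more than that, so these values say little about stability. With GC and length trends removed, 14 ratio differences moved by more than that. In R1 they became -0.294 (BAX/MCL1), 0.048 (BID/BCL2L1), -0.357 (BAD/BCL2L1), -0.732 (BAD/MCL1), -0.395 (BBC3/BCL2L1), -0.771 (BBC3/MCL1), -0.318 (BCL2L11/BCL2L1) and 0.375 (MCL1/BCL2L1), in R2 -0.13 (BID/BCL2L1), -0.949 (BAD/MCL1), -1.013 (BBC3/BCL2L1) and -1.343 (BBC3/MCL1), and between the resistant lines -0.131 (BID/MCL1) and -0.216 (BAD/MCL1). The difference of mean log2 levels between pro- and anti-apoptotic members was -0.622 to -0.539 in R1, -0.847 to -0.763 in R2 and -0.254 to -0.206 between the resistant lines without a library. In R1 it was -0.267 from summed CPM, -0.226 from summed CPM per kb and -0.292 without BCL2, and in R2 -0.46, -0.436 and -0.523. With the longest transcript as length, parental levels were 0.2094 (BCL2), 105 (BCL2L1), 45.0 (MCL1), 25.08 (BAX), 10.69 (BID), 21.62 (BAD), 6.412 (BBC3), 7.412 (BCL2L11) and 10.82 (PMAIP1) CPM per kb. BCL2, with 23 to 29 counts per parental library, is the member that depth limits most.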
